A study of Mus musculus with 12 samples.

Results

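Cd4, Cd8a, Cd8b1 and Ptprc are the transcripts of the T cell coreceptors and of CD45, and they were read here as 4 of the 748 endogenous genes of a mouse metabolic pathways panel. The members were taken by name from the panel, not by their values, and all 4 were among the 640 genes that exceeded background in at least 3 lanes. The panel was read by nCounter, in which a color-coded probe pair binds each RNA and the barcodes are counted without amplification. Each of the 12 lanes held RNA of tumor T cells from 1 female C57BL/6 mouse with a subcutaneous KPC.Luc tumor, a luciferase-expressing line of mouse pancreatic ductal adenocarcinoma. The 4 groups had 3 mice each and asked what blockade of the receptors for vasoactive intestinal peptide (VIP), with or without blockade of the checkpoint receptor PD-1, did to these T cells. Scram+IgG mice received scrambled peptide and isotype IgG, ANT008+IgG mice the VIP receptor antagonist peptide ANT008 and IgG, Scram+aPD-1 mice scrambled peptide and anti-PD-1, and ANT008+aPD-1 mice both agents. Every mouse therefore carried the tumor, a daily subcutaneous peptide injection of 10 µg and 200 µg of an antibody given intraperitoneally every few days for 10 days, from 6 to 7 days after implantation. The mice were 8 to 10 weeks old. The T cells were pulled from tumor suspensions with magnetic beads against CD90.2, at a stated purity of 80 to 85%, so other tumor cells made up the rest.

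CD4 and CD8 are coreceptors: they bind MHC class II or class I next to the T cell receptor and bring the kinase Lck to it. CD4 marks helper and regulatory T cells. CD8 marks cytotoxic T cells and sits on them mostly as a pair of an alpha chain (Cd8a) and a beta chain (Cd8b1), while alpha chains alone also occur on some other lymphocytes and dendritic cells, and some myeloid cells carry CD4. CD45, encoded by Ptprc, is a transmembrane phosphatase present on all nucleated blood cells, and it removes the inhibitory phosphate from Lck.

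Each probe reads 100 bases of its transcript. The targets of 3 members are printed, because a ratio between genes rests on these stretches alone. They are given 5′ to 3′ as the panel definition lists them, and they start at base 950 of NM_013488.2 for Cd4, base 355 of NM_001081110.2 for Cd8a and base 2320 of NM_011210.3 for Ptprc.
Cd4: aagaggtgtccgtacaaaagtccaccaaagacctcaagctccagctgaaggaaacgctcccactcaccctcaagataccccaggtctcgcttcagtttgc
Cd8a: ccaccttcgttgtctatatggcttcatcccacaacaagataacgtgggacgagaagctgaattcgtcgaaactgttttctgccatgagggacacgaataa
Ptprc: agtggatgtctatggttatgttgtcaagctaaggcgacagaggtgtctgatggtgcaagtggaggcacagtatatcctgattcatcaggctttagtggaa
The G and C share of these targets is 53% for Cd4, 46% for Cd8a and 46% for Ptprc. A single probe reads all of Ptprc, so the CD45 isoforms made from its alternative exons were not told apart. Probes capture their RNAs with different efficiency, and a ratio of 2 genes is therefore compared between mice but not read as a ratio of molecules.

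The lanes differed strongly in depth, also within groups. The total endogenous count was 1388586, 256703 and 1486646 in Scram+IgG mice 1, 2 and 3, and 1357305, 202511 and 100293 in ANT008+IgG. It was 1480466, 664792 and 93480 in Scram+aPD-1, and 5776, 268678 and 24813 in ANT008+aPD-1. Background, set at the mean plus 2 SD of the 8 negative control probes of a lane, lay between 9.94 and 28.2 counts. ANT008+aPD-1 mouse 1 had 156 of 748 genes above it, and mouse 3 of that group 357, against 517 to 648 in the other 10 lanes. In the deposited table the word FLAG stands, with no reason given, over mouse 1 of Scram+IgG and over mouse 1 of ANT008+IgG, and these are called the marked lanes.

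Ptprc exceeded background in all 12 lanes. Its raw count was 14958, 762 and 5670 in Scram+IgG, and 11254, 1026 and 489 in ANT008+IgG. In Scram+aPD-1 it was 12492, 3602 and 544, and in ANT008+aPD-1 it was 47, 2509 and 254. Deep lanes mostly had high counts, but Scram+IgG mouse 3, the deepest lane of all, had fewer Ptprc counts than mouse 1 of its group. Ptprc ranked between 14 and 75 among the endogenous genes of its lane. Cd4 counts were 1603, 108 and 687 in Scram+IgG, and 1378, 100 and 56 in ANT008+IgG. They were 2226, 444 and 92 in Scram+aPD-1, and 8, 285 and 28 in ANT008+aPD-1, where the 8 of mouse 1 did not reach the background of 9.94.

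Cd8a was counted at 3290, 46 and 301 in Scram+IgG, and at 2292, 26 and 69 in ANT008+IgG. The counts were 1014, 445 and 22 in Scram+aPD-1, and 1, 288 and 15 in ANT008+aPD-1, where mouse 1 was again under background. Its rank within a lane ran from 94 in Scram+IgG mouse 1 to 492 in ANT008+IgG mouse 2 among the 11 lanes where it exceeded background, far wider than that of Cd4, which lay between 146 and 364. Cd8b1 gave 1234, 26 and 141 counts in Scram+IgG, and 779, 20 and 16 in ANT008+IgG. It gave 564, 189 and 16 counts in Scram+aPD-1, and 10, 122 and 24 in ANT008+aPD-1. Cd8b1 exceeded background in every lane, but in ANT008+aPD-1 mouse 1 only by 10 against 9.94, and in 5 further lanes it stayed below 2 times background.

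**Figure D1:**
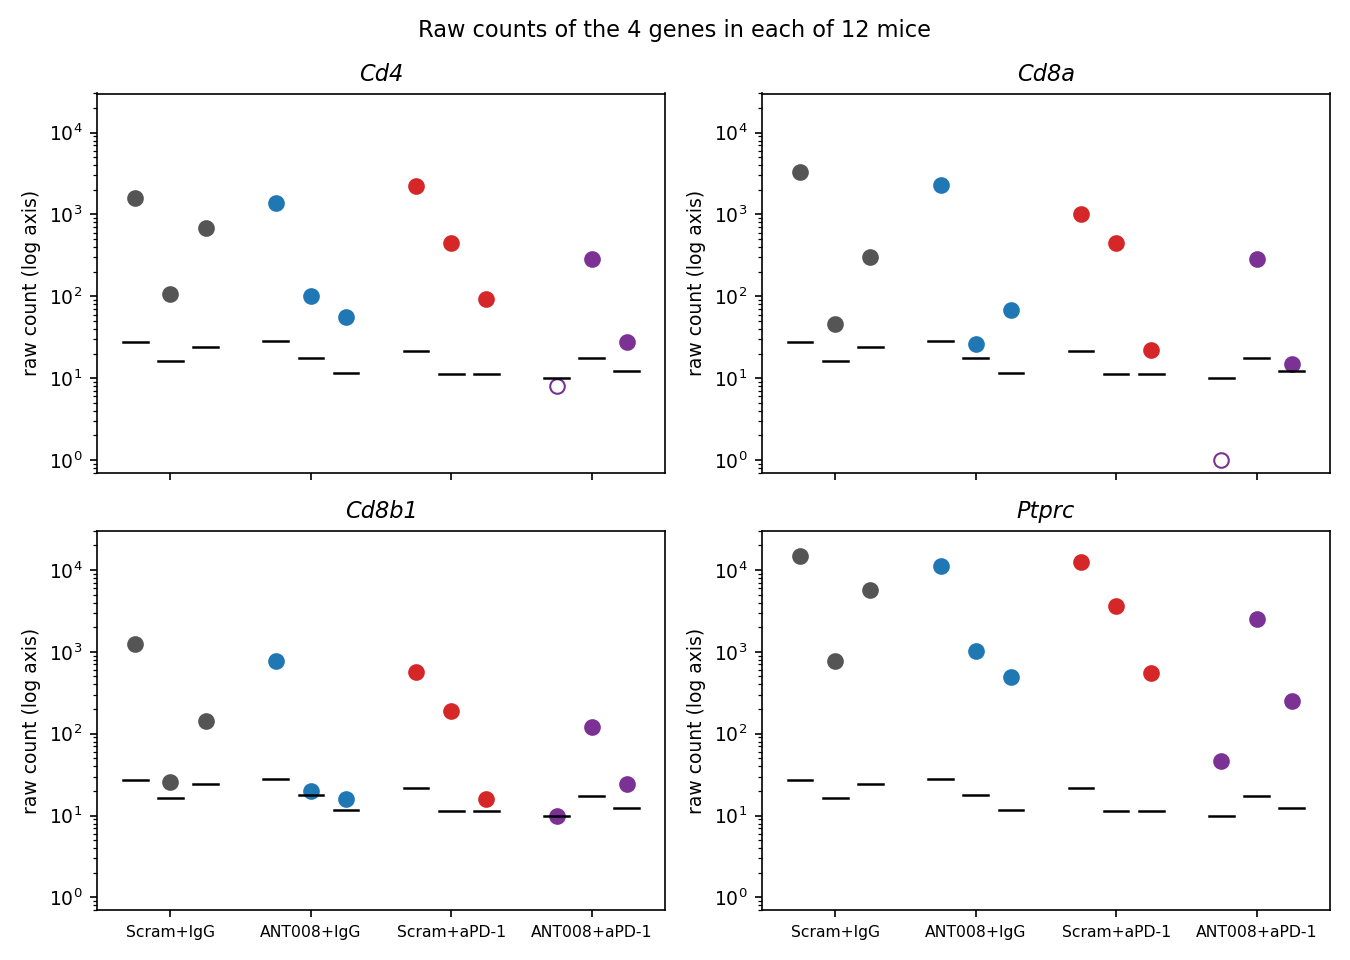
Raw counts of Cd4, Cd8a, Cd8b1 and Ptprc on a log axis, 1 point per mouse in the order of the mouse numbers; short lines are the lane's background, and hollow points are at or below it. Ptprc is well above background in every lane, while Cd4 and Cd8a fall below it in ANT008+aPD-1 mouse 1.

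The mix of Cd4 and Cd8a counts differed widely between mice of the same group. Cd8a made up 67.2% of the Cd4 plus Cd8a counts in Scram+IgG mouse 1 (95% Wilson interval 65.9 to 68.5%), but 29.9% in mouse 2 (23.2 to 37.5%) and 30.5% in mouse 3 (27.7 to 33.4%). In ANT008+IgG the share was 62.5% (60.9 to 64.0%), 20.6% (14.5 to 28.5%) and 55.2% (46.5 to 63.6%). Mouse 2 of that group stood apart from its group mates on the low side, as Scram+IgG mouse 1 did on the high side. The Scram+aPD-1 mice had shares of 31.3% (29.7 to 32.9%), 50.1% (46.8 to 53.3%) and 19.3% (13.1 to 27.5%), with no 2 intervals touching. Shares in ANT008+aPD-1 were 11.1% on 9 counts (1.99 to 43.5%), 50.3% (46.2 to 54.3%) and 34.9% (22.4 to 49.8%).

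The intervals cover counting error only. Among the 11 mice with both genes above background, they were apart in 7 of 10 pairs of mice of the same group and in 29 of 45 pairs from different groups. The group means were 42.5% ± 21.4 (SD, n = 3) in Scram+IgG, 46.1% ± 22.3 in ANT008+IgG, 33.6% ± 15.5 in Scram+aPD-1 and 32.1% ± 19.7 in ANT008+aPD-1. In bulk RNA, fewer cells of a type and less RNA of a gene per cell cannot be told apart.

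**Figure D2:**
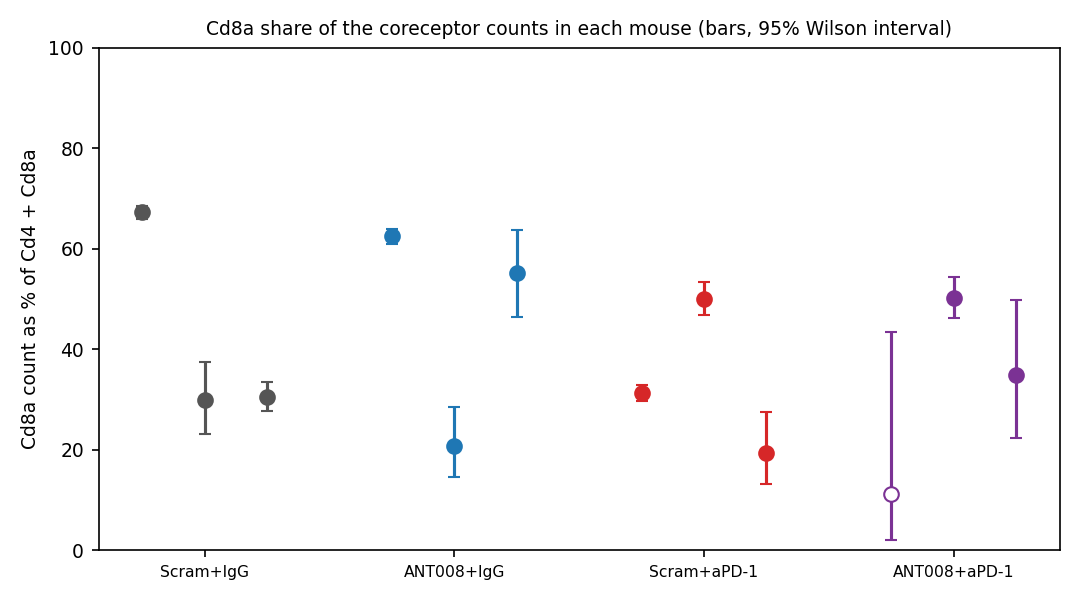
Cd8a count as percent of Cd4 plus Cd8a counts in each of the 12 mice, with 95% Wilson intervals; the hollow point is ANT008+aPD-1 mouse 1, with both genes below background. Shares run from 19.3 to 67.2% among the 11 other mice, and mice of the same group lie far apart in Scram+IgG (29.9 to 67.2%) and ANT008+IgG (20.6 to 62.5%).

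The ratio of Cd8a to Cd4 within a lane, which needs no scaling between lanes, was 2.05, 0.426 and 0.438 in Scram+IgG, and 1.66, 0.26 and 1.23 in ANT008+IgG. It was 0.456, 1.00 and 0.239 in Scram+aPD-1, and 0.125, 1.01 and 0.536 in ANT008+aPD-1. Both marked lanes had the highest values. Among the 11 mice above background, the highest ratio was 8.58 times the lowest, and it was 5.15 times the lowest among the 9 mice left without the marked lanes. The means of the log2 ratio were -0.46 ± 1.30 in Scram+IgG, -0.30 ± 1.44 in ANT008+IgG, -1.07 ± 1.04 in Scram+aPD-1 and -1.30 ± 1.55 in ANT008+aPD-1 (SD, n = 3). An exact permutation form of Dunnett's comparison over all 369600 arrangements of the 12 mice, two-sided, gave p = 0.998, 0.896 and 0.782 for the 3 treated groups against Scram+IgG. All 15 such tests, 5 ratios by 3 groups, had a Benjamini-Hochberg adjusted p of 1, and each treated group overlapped Scram+IgG in each ratio. Among all tested genes, ratios to Cd4 lay wholly above or below the control group for 0.782 and 0.156% in ANT008+IgG, 0.156 and 0.939% in Scram+aPD-1, and 2.5 and 10.2% in ANT008+aPD-1. Group membership accounted for 12.3% of the variance of the log2 ratio. The difference of ANT008+aPD-1 from Scram+IgG was -0.83 with all mice, and 0.019 without ANT008+aPD-1 mouse 1. Leaving out Scram+IgG mouse 1 moved it to -0.084, and moved that of Scram+aPD-1 from -0.60 to 0.15.

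Cd4, by contrast, kept close to Ptprc. The ratio of Cd4 to Ptprc was 0.107, 0.142 and 0.121 in Scram+IgG, and 0.122, 0.0975 and 0.115 in ANT008+IgG. It was 0.178, 0.123 and 0.169 in Scram+aPD-1, and 0.170, 0.114 and 0.110 in ANT008+aPD-1, where the first rests on a Cd4 count below background. Over the 11 mice above background the ratio varied 1.83-fold (SD of log2 0.27; 1.83-fold and 0.29 without the marked lanes), across a depth range in which the Ptprc count itself ran from 254 to 14958. Mice 1 and 3 of Scram+aPD-1 had the highest values of those 11, and mouse 2 of that group lay among the other groups. Scram+aPD-1 exceeded Scram+IgG by 0.34 on the log2 scale, with overlap and an exact permutation p of 0.329. The background for such overlap, over all genes relative to Ptprc, was 0.313% wholly higher and 0.156% wholly lower in ANT008+IgG, 1.1 and 0.313% in Scram+aPD-1, and 3.91 and 3.91% in ANT008+aPD-1.

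The ratio of Cd8a to Ptprc ranged 8.68-fold over the same 11 mice, from 0.0253 in ANT008+IgG mouse 2 to 0.220 in Scram+IgG mouse 1. Without the marked lanes the range was 5.57-fold. The exact permutation p against Scram+IgG was 1 for ANT008+IgG, 0.987 for Scram+aPD-1 and 0.780 for ANT008+aPD-1. Groups took 8.98% of its variance, against 40.0% for Cd4 to Ptprc, and neither ratio passed over the 4 groups in an exact permutation of the F statistic (p = 0.840 and 0.214, adjusted over 5 ratios 0.840 and 0.534). After subtraction of background, Cd4 to Ptprc passed over the 4 groups (unadjusted exact permutation p = 0.0223), and its difference in ANT008+aPD-1 turned from 0.07 to -0.41, in a group whose mouse 1 had a Cd4 count below background.

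The ratio of both CD8 chains varied little in lanes with many counts and widely near background. Cd8b1 to Cd8a was 0.375, 0.565 and 0.468 in Scram+IgG, and 0.340, 0.769 and 0.232 in ANT008+IgG. The Scram+aPD-1 mice had 0.556, 0.425 and 0.727, and the ANT008+aPD-1 mice 10, 0.424 and 1.6. The value of 10 is 10 counts over 1 count. In the 2 mice with the largest values of this ratio, ANT008+aPD-1 mice 1 and 3, Cd8b1 stood at 1.01 and 1.93 times background. Over the 11 mice with Cd8a above background the ratio ranged 6.9-fold, and its lowest value, in ANT008+IgG mouse 3, also came from a Cd8b1 count of 1.36 times background. In the 6 lanes with both genes over 5 times background it lay between 0.340 and 0.556, a 1.64-fold range. No treated group was free of overlap with the control. Over all genes relative to Cd8a, 0.313, 0.782 and 2.35% lay wholly above the control group in the 3 comparisons, and 0% below. ANT008+aPD-1 differed from Scram+IgG by 2.03 on the log2 scale (exact permutation p = 0.148), and by 0.83 without mouse 1 of that group (p = 0.542, exact permutation). Leaving out ANT008+aPD-1 mouse 2, the deepest of the group, moved the difference to 3.11 (unadjusted exact permutation p = 0.00890), on the other 2 lanes of the group alone.

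Ptprc relative to the geometric mean of the CD3 chains Cd3d, Cd3e and Cd3g was 3.04, 7.61 and 9.62 in Scram+IgG, and 3.46, 11.9 and 4.52 in ANT008+IgG. It was 5.42, 4.62 and 12.9 in Scram+aPD-1, and 3.11, 3.63 and 5.10 in ANT008+aPD-1. The 3 values of the combination group lay between the lowest and the middle control mouse, and the difference of -0.65 on the log2 scale did not pass (exact permutation p = 0.628). The marked lanes, with the highest Cd8a to Cd4 ratios, had the lowest values of their groups here.

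**Figure D3:**
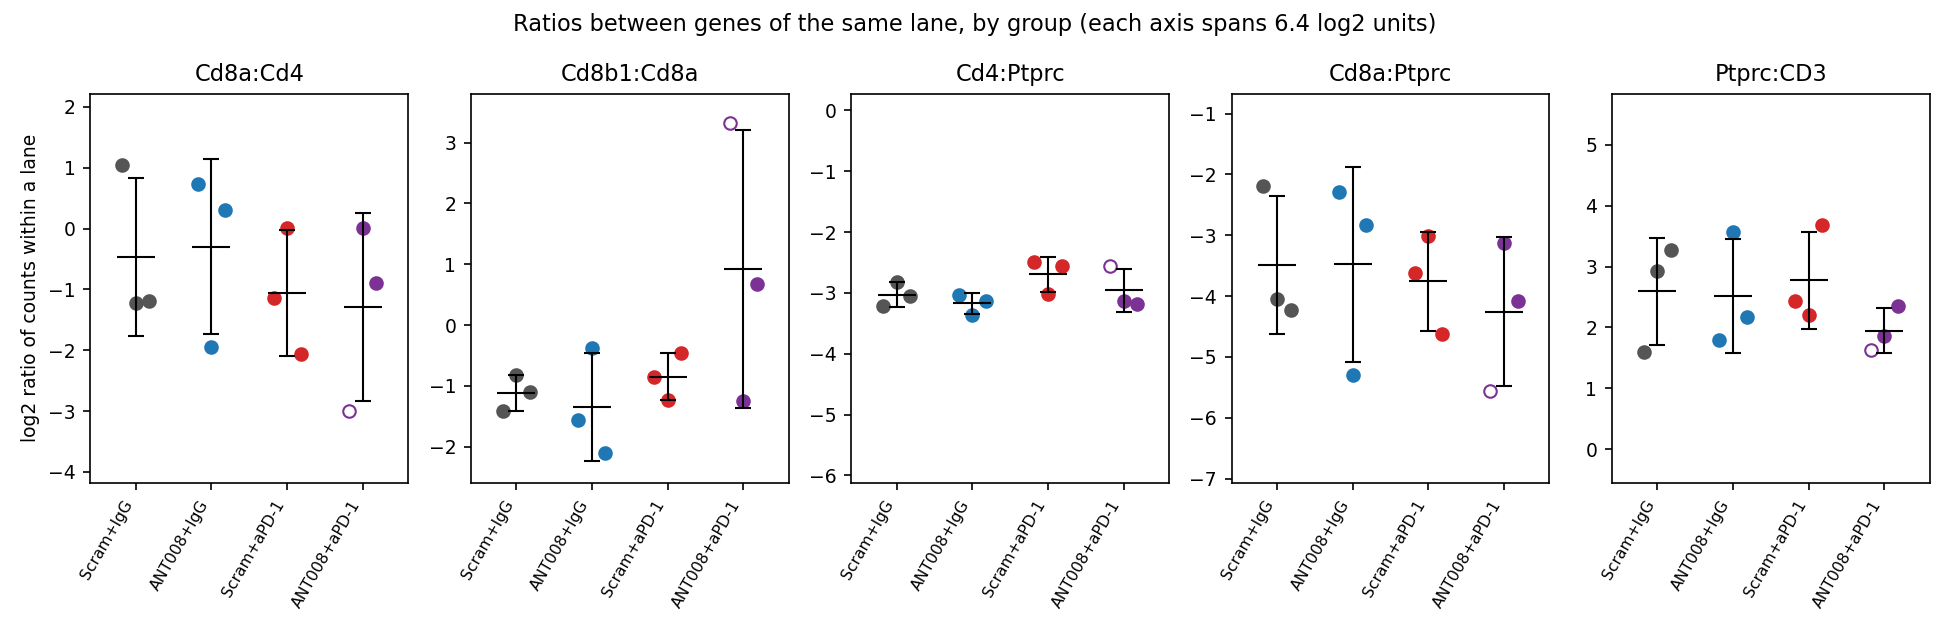
Log2 ratios of raw counts within a lane for the 5 ratios, 1 point per mouse, with the group mean and SD; hollow points have a gene at or below background, and each axis spans the same number of log2 units. Cd4:Ptprc stays within a narrow band in all groups, while Cd8a:Cd4 and Cd8a:Ptprc scatter widely inside each group.

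The ratio of Cd8a to Cd4 was set against the depth of the lane. Over 12 mice, log2 Cd8a:Cd4 and the log2 total endogenous count had Pearson's r = 0.600 (permutation p = 0.0396) and Spearman's rho = 0.454 (permutation p = 0.140). With the housekeeping lane size in place of the total, r was 0.644 (permutation p = 0.0249), and the adjusted p over these 2 relations was 0.0396. Without the 2 mice farthest from the median depth, r was 0.381 with the total (permutation p = 0.264) and 0.498 with the lane size (permutation p = 0.142), so neither relation passed without those mice. Over the 11 mice with both genes above background r was 0.357 and 0.450 (permutation p = 0.275 and 0.162). The part of depth in the spread of Cd8a between mice was not tested beyond these values.

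The 3 genes whose counts followed each member most closely were taken as those with the smallest SD, over lanes, of the log2 ratio to the member. Cd4 was followed most closely by Ptprc (SD 0.27), by Traf1, an adaptor of TNF receptor signaling (0.27), and by Itgb2, the beta-2 integrin chain of leukocytes (0.28). The median SD of the 348 genes compared over 11 mice was 0.83. Cd8a stood at 1.05, rank 286 of these genes. Without the marked lanes the 3 genes nearest to Cd4 were Nkg7 (0.27), Traf1 (0.28) and Itgb2 (0.29), and Ptprc was no longer among them. Ptprc itself was nearest to Itgb2 (0.25), to Cd3d (0.27) and to Bcl2a1a, an anti-apoptotic gene of the Bcl2 family (0.28), over 12 lanes and 141 genes. Across lanes, Itgb2 counts ranged from 38.3 to 71.9% of the Ptprc count over the 11 mice, and Traf1 counts from 11.6 to 16.9%.

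Cd8a had other companions. Klrk1, which encodes the activating receptor NKG2D of cytotoxic T cells and NK cells, followed it with an SD of 0.36, Cd3g with 0.37 and Cd3e with 0.37, while the median SD to Cd8a was 1.43. Klrk1 amounted to 0.870 to 1.82 counts per Cd8a count, a 2.10-fold range, while its count relative to Ptprc ranged 8.07-fold. Cd3g ranged 2.31-fold relative to Cd8a and 8.15-fold relative to Ptprc, and Cd3e 2.21-fold and 7.83-fold. Cd8b1 was the gene at rank 25 for Cd8a, with an SD of 0.73. Its own nearest genes were Cd247, the zeta chain of the T cell receptor complex (0.45), the chemokine receptor Cxcr6 (0.69) and Cd3g (0.69), over 12 lanes. Without the marked lanes the 3 genes nearest to Cd8a were Cd27, a co-stimulatory receptor (0.30), Lck (0.32) and Pik3cd, a leukocyte PI3-kinase subunit (0.37), with Klrk1 at rank 4, Cd3e at rank 10 and Cd3g at rank 11. The genes of each ratio share the depth of their lane, while depth differed between lanes, and these likenesses carry no p.

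The genes of the T cell receptor complex did not all fall on the same side when compared with Cd4 and Cd8a. Of the 347 genes above background in the 11 lanes, 24 varied less relative to Cd8a than to Cd4, which is 6.92%. Among the 9 comparable genes of the receptor complex and its proximal kinases, 4 did so, with Cd3e, Cd3g and Lck among them. The other 5 were on the side of Cd4, where most of the 347 genes lay: Cd3d, Cd247, the kinase Zap70, the adaptor Lat and the surface receptor Cd6. Cd3d, Cd247, Zap70 and Cd6 varied less relative to Ptprc than to Cd4, and Lat did not. Cd247, for example, had an SD of 0.41 to Ptprc and 0.54 to Cd4. Cd3d and Cd3g are chains of one complex, but Cd3d had an SD of 0.94 to Cd8a and 0.26 to Ptprc, and Cd3g had 0.37 and 1.10. Cd3d counts were 34.7, 30.2 and 19.8% of the Ptprc count in Scram+IgG, where Cd3g counts were 42.1, 9.71 and 8.89%.

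Of the 9 comparable CD8 T cell and cytotoxic genes, 4 were nearer to Cd8a: Klrk1, Klrd1 (an NK receptor chain, CD94), the chemokine Ccl5 and the protease granzyme B (Gzmb). The other 5 were on the side of Cd4, as most genes were, namely granzyme A (Gzma), perforin (Prf1), Nkg7, the transcription factor T-bet (Tbx21) and the death ligand Fasl. Tbx21 had the largest spread of this list relative to Cd8a, with an SD of 1.89. Its SD to Cd4 was 0.98, above the median of 0.83 over the genes compared with Cd4. Nkg7 and Fasl had a smaller SD to Ptprc (0.27 and 0.52) than to Cd4 (0.32 and 0.65), and Gzma, Prf1 and Tbx21 did not. Il2ra, the interleukin-2 receptor alpha chain, was the 1 gene of the CD4 and regulatory T cell list above background in all 11 lanes. It was nearer to Cd4 (SD 0.61) than to Cd8a (0.90), and nearer still to Ptprc (0.45). Without the marked lanes, 58 of 347 genes (16.7%) were nearer to Cd8a, and 23 of the 24 were among them. In that setting 5 of 9 genes of the receptor complex and proximal kinases were nearer to Cd8a, and 5 of 9 CD8 T cell and cytotoxic genes. In each of these lists the 4 genes nearer to Cd8a over 11 lanes stayed so.

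**Figure D4:**
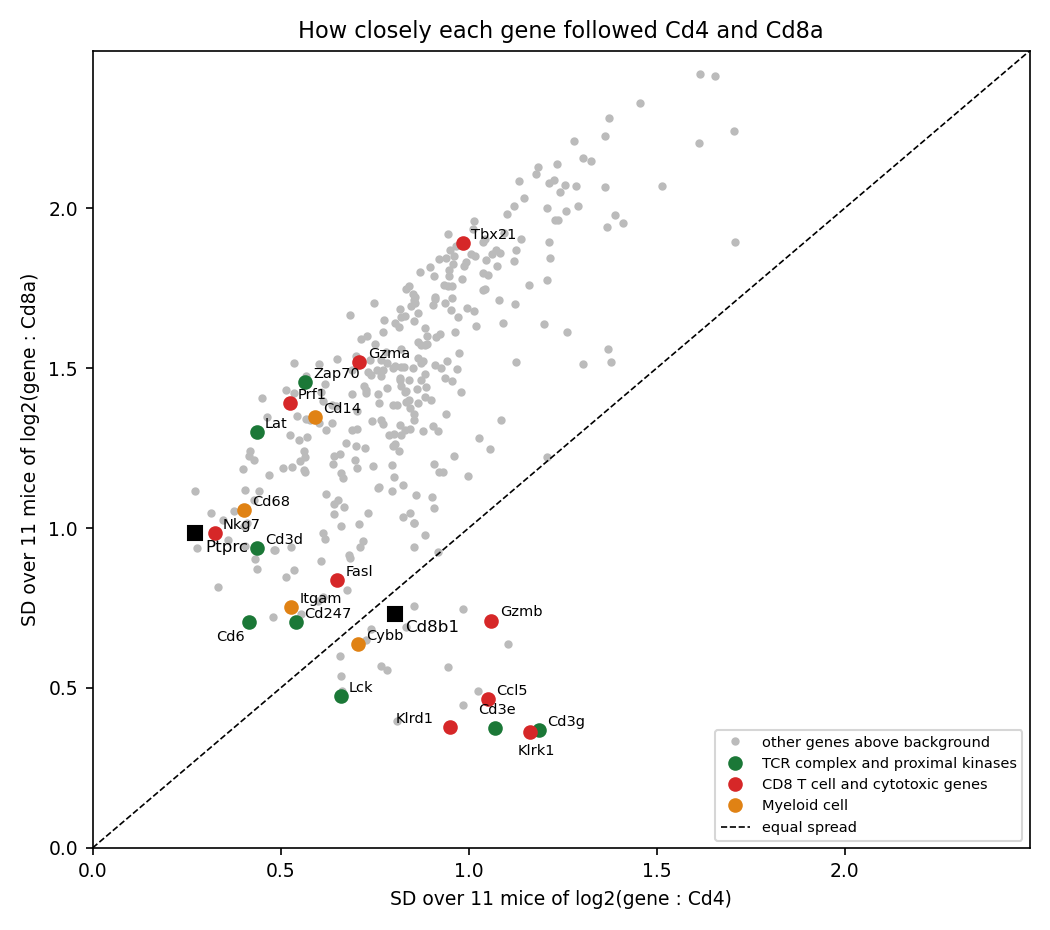
Spread over 11 mice of the log2 ratio of each gene to Cd4 (x axis) and to Cd8a (y axis), for 347 genes above background in those lanes; colors mark genes of 3 lists and black squares Ptprc and Cd8b1. Points below the dashed line, such as Klrk1, Cd3e and Cd3g, varied less relative to Cd8a, and 24 genes lie there.

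The isolates also held markers of cells other than T cells. The 6 myeloid markers Cd14, Cd68, Cd163, Itgam, Cybb and Nos2 all exceeded background in 5 lanes. Cd68, a lysosomal protein of macrophages whose probe had the most counts of the 6 in 9 of 12 lanes, was counted at 5106, 169 and 1830 in Scram+IgG, at 4275, 357 and 90 in ANT008+IgG, at 6249, 1318 and 172 in Scram+aPD-1, and at 14, 712 and 67 in ANT008+aPD-1. Relative to the Ptprc count, the 6 markers summed to 78.6, 57.3 and 76.6% in Scram+IgG and to 105, 80.2 and 75.1% in ANT008+IgG. They summed to 110, 93.3 and 87.3% in Scram+aPD-1, and to 151, 105 and 85.0% in ANT008+aPD-1, where 3 of the 6 were above background in mouse 1. All 3 Scram+aPD-1 mice, all 3 combination mice and 2 of 3 ANT008+IgG mice lay above the control range on this sum, which has no test here, while 1.1% of all genes in Scram+aPD-1 and 3.91% in ANT008+aPD-1 lay wholly above the controls relative to Ptprc. Ptprc and, in part, Cd4 are also made by myeloid cells, and their part in the values above was not tested. Cd14, Cd68 and Itgam were nearer to Cd4 than to Cd8a, and Cybb, a subunit of the phagocyte oxidase, was nearer to Cd8a.

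The 3 NK cell markers on the panel summed to 68.0, 22.2 and 27.7% of the Ptprc count in Scram+IgG, 69.0, 13.9 and 66.3% in ANT008+IgG, 32.2, 30.0 and 19.1% in Scram+aPD-1, and 78.7, 60.2 and 29.5% in ANT008+aPD-1. The Klrd1 probe had the most counts of the 3 in every lane. Klrd1 and Klrk1 are in both this list and the cytotoxic list, and Ncr1, the marker of NK cells that is not, exceeded background in 10 of 12 lanes. The B cell marker Ms4a1 did not exceed background in 9 of 12 lanes, and the kinase Blk in 11. Btk, a kinase of B cells that myeloid cells also make, exceeded it in 11 of 12 lanes, with at most 896 counts. The fibroblast marker Pdgfrb reached at most 161 counts, and the dendritic cell marker Flt3 at most 45. The panel held no gene of the tumor epithelial list. The T cell markers Cd3d, Cd3g and Cd247 exceeded background in every lane, and Cd3e in 11.

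Compared between groups after scaling the lanes by 3 housekeeping genes, none of the 4 members passed an FDR below 0.1 in the edgeR quasi-likelihood test of all 12 mice. The background for that count is 0 of 640 genes called (0%) in each direction of each of the 3 comparisons and over the 4 groups. At an unadjusted p below 0.05 there were 3 genes for ANT008+IgG (0.469%), 7 for Scram+aPD-1 (1.09%), 82 for ANT008+aPD-1 (12.8%) and 29 over the 4 groups (4.53%), and no member was among them. By another test, limma's voom with sample weights, which gives deviating lanes less weight, all 4 members were called higher in Scram+aPD-1, with an FDR of 0.0393 for Cd4, 0.0944 for Cd8a, 0.0673 for Cd8b1 and 0.0676 for Ptprc. It called Cd4 (FDR 0.0828), Cd8b1 (0.0299) and Ptprc (0.0259) higher in ANT008+aPD-1. By voom 14.5% of all tested genes were higher and 7.81% lower in Scram+aPD-1, and 21.1% higher and 3.28% lower in ANT008+aPD-1. The scaled counts of 0 of 4 members were free of overlap with Scram+IgG in any treated group. Over all tested genes, scaled counts lay wholly above the control group for 2.97%, 2.97% and 7.81% of genes in the 3 comparisons, and wholly below for 0.469%, 1.09% and 5.78%.

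Scaled Cd4 counts were 261, 103 and 107 in Scram+IgG, and 219, 172 and 112 in ANT008+IgG. They were 396, 135 and 377 in Scram+aPD-1, and 288, 225 and 337 in ANT008+aPD-1. Mice with anti-PD-1 were mostly higher, with overlap. In ANT008+aPD-1, the 288 of mouse 1 came from 8 counts, below background, and the 337 of mouse 3 from 28 counts, 2.26 times background. The log2 fold change was 0.10 ± 0.48 (SE) in ANT008+IgG, 0.94 ± 0.49 in Scram+aPD-1 and 0.83 ± 0.51 in ANT008+aPD-1 (edgeR FDR 0.999, 0.988 and 0.473). Without Scram+IgG mouse 1 they were 0.68, 1.52 and 1.40 (edgeR FDR 0.999, 0.287 and 0.121). The median over all tested genes was 0.11, 0.15 and 0.12 in these comparisons.

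Scaled Ptprc counts were 2432, 726 and 887 in Scram+IgG, 1788, 1766 and 976 in ANT008+IgG, 2223, 1092 and 2230 in Scram+aPD-1, and 1694, 1980 and 3056 in ANT008+aPD-1. Scram+IgG mouse 1 was the highest of the first 3 groups, well over the other control mice. The log2 fold changes were 0.16 ± 0.52, 0.45 ± 0.52 and 0.74 ± 0.52 (SE; edgeR FDR 0.999, 0.988 and 0.558). Without Scram+IgG mouse 1 they were 0.91, 1.196 and 1.48 (edgeR FDR 0.774, 0.359 and 0.0992).

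Cd8a was the member with the widest error. Its scaled counts were 535, 43.8 and 47.1 in Scram+IgG, and 364, 44.7 and 138 in ANT008+IgG. They were 180, 134.9 and 90.2 in Scram+aPD-1, and 36.0, 227 and 180.5 in ANT008+aPD-1. The control mouse with the marked lane lay above every other mouse, while the other control mice were among the lowest 4 of the 12. The log2 fold changes were -0.18 ± 0.93, -0.61 ± 0.93 and -0.31 ± 0.98 (SE; edgeR FDR 0.999, 0.988 and 0.928). Without Scram+IgG mouse 1 all 3 turned positive, to 2.02, 1.59 and 1.92, with an edgeR FDR of 0.488, 0.391 and 0.160. Without that mouse Cd8b1 also turned positive, to 1.501 in ANT008+IgG (edgeR FDR 0.558) and to 1.69 in Scram+aPD-1 (FDR 0.353).

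Scaled Cd8b1 counts were 201, 24.8 and 22.1 in Scram+IgG, 124, 34.4 and 31.9 in ANT008+IgG, 100.4, 57.3 and 65.6 in Scram+aPD-1, and 360, 96.3 and 289 in ANT008+aPD-1. The combination group was the highest, and it overlapped the control through Scram+IgG mouse 1. The log2 fold changes were -0.34 ± 0.83, -0.15 ± 0.83 and 1.43 ± 0.90 (SE; edgeR FDR 0.999, 0.988 and 0.482). On this scale the background of a lane was 358 in ANT008+aPD-1 mouse 1 and 149 in mouse 3, against 3.42 to 46.3 in the other 10 lanes, so 2 of the 3 high values lie within 2 times their own background. Without Scram+IgG mouse 1 the change was 3.26 (edgeR FDR 0.0347), and Ptprc in the same comparison passed at 1.48 (FDR 0.0992). In that fit 68 of 640 genes were called higher (10.6%) and 16 lower (2.5%) in ANT008+aPD-1. Without ANT008+aPD-1 mouse 1, the shallowest lane, Cd8b1 stood at 1.11 (edgeR FDR 0.764). Without both marked lanes Cd8a passed in ANT008+aPD-1 at 1.92 (FDR 0.0785) and Cd8b1 at 3.26 (FDR 0.0180), while Ptprc did not (FDR 0.117). With those lanes out, 67 of 640 genes were called higher (10.5%) and 16 lower (2.5%) in that comparison. The Cd8a counts of ANT008+aPD-1 mice 1 and 3 in it were 1 and 15, at 0.10 and 1.21 times background.

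**Figure D5:**
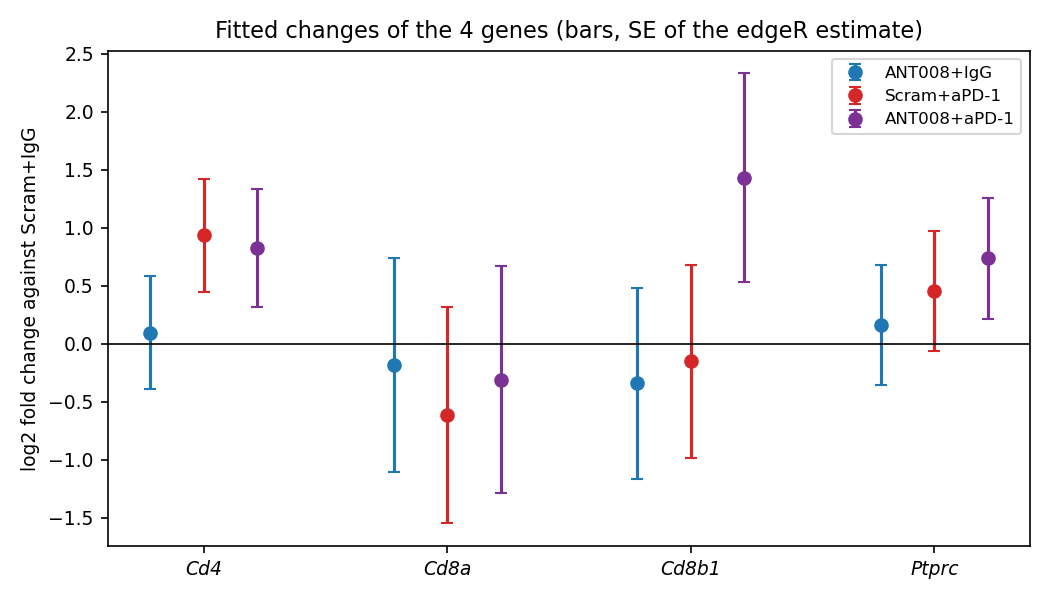
Log2 fold changes of the 4 genes against Scram+IgG in the 3 treated groups (colors), with the SE of the edgeR estimate, after scaling by 3 housekeeping genes. No estimate passed an edgeR FDR below 0.1, and the bars of Cd8a and Cd8b1 are wider than those of Cd4 and Ptprc.

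No member passed the test of whether the effect of the combination departed from the sum of both single effects. The interaction was -0.21 ± 0.70 for Cd4, 0.49 ± 1.35 for Cd8a, 1.92 ± 1.23 for Cd8b1 and 0.12 ± 0.73 for Ptprc on the log2 scale (SE), with an edgeR FDR of 0.993 for each. Over the 4 groups together the edgeR FDR was 0.998 for each member.

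The gene lists around the coreceptors gave no called gene either. Of the 10 T cell receptor and proximal kinase genes tested, 0 passed in any comparison, and their median log2 fold change was -0.04 in ANT008+IgG, 0.14 in Scram+aPD-1 and 0.88 in ANT008+aPD-1, where 9 of 10 estimates were above 0. In ANT008+aPD-1 they ran from -0.67 for Plcg1, a phospholipase that acts after Lat, to 1.44 for Cd247. The 6 CD4 and regulatory T cell genes had medians of 0.59, 0.51 and 1.54. Il10, an anti-inflammatory cytokine, had the largest estimate of that list, 3.82 in ANT008+aPD-1 (edgeR FDR 0.242), on raw counts of 7, 41 and 10, of which 1 exceeded its background, and Foxp3, the regulatory T cell factor, had 0.44 on counts of 2, 41 and 1. The 11 CD8 and cytotoxic genes had medians of -0.05, 0.26 and 0.87, all beside the medians over all tested genes of 0.11, 0.15 and 0.12. Relative to Ptprc, the medians in ANT008+aPD-1 were 0.19 for the T cell receptor list, 0.95 for the CD4 list and 0.55 for the CD8 list, where all tested genes stood at -0.96. In mice 1, 2 and 3 of that group, 0, 5 and 2 of the 6 CD4 list genes exceeded background. For the CD8 list 7, 11 and 10 of 11 genes did so, and for the receptor list 6, 10 and 9 of 10. The part of background in these medians was not tested. Of the 6 myeloid markers 0 passed, and their log2 fold changes in ANT008+aPD-1 ran from 0.52 for Cybb to 2.62 for Cd163. The Cd163 estimate rests on raw counts of 2, 13 and 23 in that group, of which only the count of mouse 3 exceeded background.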

How the data were processed

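The authors isolated T cells from subcutaneous tumors with CD90.2 beads, extracted RNA and read it on the nCounter Metabolic Pathways Panel. The deposited table holds raw barcode counts per probe, whole numbers with no normalization, for 12 mice, 1 lane each; replicates were not pooled. The name of the deposited table points to an nSolver export of the lane files; its version is not given in the sources used here. Each lane is a separate mouse, and of 12 pairs of lanes of the same group 0 were identical (lowest chi-square per degree of freedom 3.06). The smallest p that 3 against 3 mice allow in an exact test is 0.1.

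Background was the mean plus 2 SD of 8 negative probes. For scaling, each count was divided by a lane size, the geometric mean over Dnajc14, Oaz1 and Ubb, the 3 of 20 housekeeping genes that passed background in all 12. The 640 genes that did so in 3 or more lanes entered edgeR 4.0.16 (R 4.3.3) quasi-likelihood fits with the 4 groups in 1 model and Benjamini-Hochberg adjustment over all of them, called at an FDR below 0.1. Within-lane ratios used deposited counts with no pseudocount, and exact permutation (Python 3.11.15, numpy 2.4.6, scipy 1.17.1). Depth relations used 100000 permutations. Scripts were tested on simulated data. Alternatives included DESeq2 1.42.0, limma 3.58.1, other scalings, background subtraction and leaving out each mouse. Depth limits the 2 shallow ANT008+aPD-1 lanes most.

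Named genes are the 4 members, the 3 genes nearest each by the SD of the log2 ratio, and fixed lists. Members, lists and thresholds were chosen with earlier results of these data known. Gene names are those of the panel. Leaving out both marked lanes, limiting the depth relation to 11 mice, and limiting Cd8b1:Cd8a to lanes over 5 times background, were chosen after seeing the data. Some genes of the lists are not reported here.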

Additional observations from a re-analysis of the deposited data

How the results depend on the processing

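Under other settings, leaving out single mice apart, 262 fitted values and 109 ratio values kept their direction and side of the threshold, and 40 and 10 changed sign. The exceptions follow, as log2 fold changes or log2 ratio differences against Scram+IgG, and the cause was not tested. Scaling by the positive controls, by no factor, by Ptprc or by the CD3 chains moved the median of all genes to -0.66, -0.83 and -4.37, to -0.86, -0.60 and -3.44, to -0.36, -0.60 and -0.96, and to -0.59, -0.64 and -1.91 in the ANT008+IgG group, the Scram+aPD-1 group and the combination, respectively, and the signs below are to be read against those shifts. Positive control scaling gave Cd4 -0.46, -0.021 and -3.92 and Ptprc -0.59, -0.63 and -3.96 in these groups, and Cd8b1 -4.26 in the combination. No lane scaling gave -0.64 for Cd4 and -0.74 for Ptprc in ANT008+IgG, -0.36 for Ptprc in Scram+aPD-1, and -2.90, -3.16 and -2.93 for Cd4, Cd8b1 and Ptprc in ANT008+aPD-1. Scaling by Ptprc gave Cd4 -0.14 and Cd8a 0.15 in ANT008+IgG. Scaling by the CD3 chains gave Cd4 -0.29, Cd8a 0.0082 and Ptprc -0.030 in ANT008+IgG, Cd8b1 0.19 in Scram+aPD-1, and Cd4 -0.78 and Ptprc -0.77 in ANT008+aPD-1.

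Limma on log2 scaled counts turned Cd8a to 0.34, 0.32 and 0.14 in the 3 groups, and Cd8b1 to 0.094 in ANT008+IgG and 0.57 in Scram+aPD-1. Voom with sample weights, which weighs shallow or deviating lanes less, called 44, 143 and 156 genes and 199 over the 4 groups. It gave Cd8a 1.80 and Cd8b1 1.56 in ANT008+IgG. In Scram+aPD-1 it gave Cd4 1.44, Cd8a 1.55, Cd8b1 1.71 and Ptprc 1.11, and in ANT008+aPD-1 1.46, 1.57, 3.18 and 1.55; of these all passed an FDR below 0.1 but Cd8a in ANT008+aPD-1 (FDR 0.287). Over the 4 groups it gave F of 5.75 for Cd4, 5.74 for Cd8b1 and 6.39 for Ptprc, all passing. In ANT008+aPD-1, TMM scaling called 2 genes, total count scaling 1, DESeq2 30 (30 over the 4 groups) and CD3 scaling 192, all lower.

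Without the 2 marked lanes, Cd8a was 1.00, 1.59 and 1.92 and Cd8b1 0.51, 1.69 and 3.26, with 83 genes called in ANT008+aPD-1 and 18 over the 4 groups, and an F of 13.2 for Cd8b1. The ratio differences then were 0.15 for Cd8a:Cd4, 0.39 for Cd8a:Ptprc and -0.32 for Ptprc:CD3 in Scram+aPD-1, and -0.026 for Cd4:Ptprc in ANT008+aPD-1. Cd8b1:Cd4 in place of Cd8a:Cd4 gave -0.079 in ANT008+IgG and 1.197 in ANT008+aPD-1. With only mice above background, Cd8a:Cd4 was 0.019 and Cd4:Ptprc -0.13 in ANT008+aPD-1. Background subtraction gave -0.41 for Cd4:Ptprc in ANT008+aPD-1, with F = 5.29 over the groups (exact permutation p = 0.0223), and -0.095 for Cd8a:Ptprc in ANT008+IgG. The depth relation fell to r = 0.381 and 0.357 with the total, and to 0.498 and 0.450 with the lane size. Of the 3 nearest genes, without the marked lanes 2 were shared for Cd4, 0 for Cd8a, 2 for Cd8b1 and 1 for Ptprc. After background subtraction 3, 1, 2 and 2 were shared, and those of Cd8a were Cd27, Klrk1 and Pik3cd. By Pearson's r 2, 3, 2 and 1 were shared.

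The mice numbered 1 deviated together in the controls and both monotherapy groups (correlations 0.68, 0.76 and 0.78), but over all 18 pairs with the same number the correlations ran from -0.64 to 0.78 and 7 exceeded 0.1, so the numbers were not taken to pair the mice. The fit with the replicate block called 0 genes in each comparison and gave Cd8a 0.19, 0.12 and 0.80 and Cd8b1 0.49 in Scram+aPD-1.

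Leaving out 1 mouse at a time gave 0 to 84 called genes in ANT008+aPD-1, with 84 without Scram+IgG mouse 1 and 68 without ANT008+aPD-1 mouse 2, and 0 to 4 over the 4 groups. Cd4 ranged from -0.15 to 0.68, 0.68 to 1.52 and 0.60 to 1.40 in the 3 groups, and Ptprc from -0.14 to 0.91 in ANT008+IgG and from 0.15 to 1.196 in Scram+aPD-1. Cd8a ranged from -1.20 to 2.02, -1.09 to 1.59 and -0.79 to 1.92 in the 3 groups, and Cd8b1 from -1.33 to 1.501, -0.60 to 1.69 and 0.98 to 3.26. Ptprc ranged from 0.44 to 1.48 in ANT008+aPD-1. Ratio differences ranged from -0.36 to 0.98, -1.14 to 0.15 and -1.49 to 0.019 for Cd8a:Cd4, and from -0.72 to 0.14 in ANT008+IgG and 0.83 to 3.11 in ANT008+aPD-1 for Cd8b1:Cd8a, where F over the groups ran from 0.891 to 6.80. Cd4:Ptprc ranged from -0.13 to 0.18 in ANT008+aPD-1. Cd8a:Ptprc ranged from -0.57 to 0.93 and -0.64 to 0.39, and Ptprc:CD3 from -0.61 to 0.27 and -0.32 to 0.51, in ANT008+IgG and Scram+aPD-1.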

Other observations

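Ccl5, a chemokine of effector T cells, was counted at 22119, 282 and 1966 in Scram+IgG, and at 12292, 216 and 356 in ANT008+IgG. It was counted at 7317, 2759 and 160 in Scram+aPD-1, and at 33, 3843 and 200 in ANT008+aPD-1. Relative to Cd8a its counts ranged 2.59-fold over 11 mice, and relative to Ptprc 7.28-fold. Nkg7, a granule membrane protein of the same effector cells, had an SD of 0.98 to Cd8a and 0.27 to Ptprc on the log2 scale. Counts of Cd14, a co-receptor of myeloid cells, amounted to 9.07 to 29.1% of the Ptprc count in 11 mice and to 59.6% in ANT008+aPD-1 mouse 1, and its log2 fold change in ANT008+aPD-1 was 2.36 ± 0.53 (SE; edgeR FDR 0.242).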
